A study of Mus musculus with 8 samples.

Results

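The level of 10 imprinted genes of growth control was followed in the choroid plexus of the mouse embryo: Dlk1, Meg3, H19, Peg3, Cdkn1c, Mest, Plagl1, Grb10, Ndn and Peg10. They were taken by name from a list, by a rule that sets no threshold on these counts. The list itself was chosen with earlier results of these data known. All 10 had a row among the 23284 genes of the count table, and all 10 were among the 15698 genes that passed the filter on low counts. The choroid plexus is a secretory epithelium around a vascular stroma that makes cerebrospinal fluid in the brain ventricles. RNA was sequenced from the telencephalic (lateral) and the hindbrain plexus, either as whole tissue or as epithelial cells sorted by flow cytometry. The study thus had 4 groups of 2 libraries. Whole telencephalic and whole hindbrain plexus came from CD1 embryos, and the sorted cells of each region from ICR (CD1) embryos that carry Ttr::RFP; all embryos were at E18.5, shortly before birth. No gene was deleted and no agent was given in any group, per the labels. The sorted cells were defined by a red fluorescent reporter named for Ttr, the transthyretin gene that choroid plexus epithelium expresses at a very high level. The labels give neither the number of embryos in a library nor the age at which the reporter starts. Both regions of a replicate came from the same brains, whereas whole tissue and sorted cells came from different ones. Sorting thus cannot be told apart from the reporter, the handling of the cells and the different brains. Below, a gene that rose or fell on sorting, or was raised or lowered by it, differed between sorted cells and whole tissue.

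An imprinted gene is transcribed mainly from the allele inherited from a single parent, with the choice set by DNA methylation laid down in the germ line. Many imprinted genes act in fetal growth: among these, Dlk1, Peg3, Mest, Plagl1, Ndn and Peg10 are expressed from the paternal allele, Meg3, H19 and Cdkn1c from the maternal one, and Grb10 from the maternal one in most tissues but from the paternal one in neurons. Allelic origin was not measured here, since the counts were summed over both alleles of each gene.

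RefSeq start sites on the GRCm38.p6 build were found for 7 of the 10 genes, with 11 start sites among them; H19, Cdkn1c and Peg10 had no entry in the table used. The 250 bases before the start are printed below for 4 genes, because the results turn on the regional difference of Dlk1, Meg3 and Plagl1 and because Grb10 differed between sorted cells and whole tissue. Each runs 5′ to 3′ toward the start, and capitals mark CG dinucleotides, the sites at which mammalian DNA is methylated. The Dlk1 stretch is chr12:109452573-109452822 on the plus strand, the Meg3 stretch (the first of its start sites) is chr12:109540746-109540995 on the plus strand, the Plagl1 stretch is chr10:13090582-13090831 on the plus strand, and the Grb10 stretch (the first of its start sites) is chr11:12037421-12037670 on the minus strand.
Dlk1: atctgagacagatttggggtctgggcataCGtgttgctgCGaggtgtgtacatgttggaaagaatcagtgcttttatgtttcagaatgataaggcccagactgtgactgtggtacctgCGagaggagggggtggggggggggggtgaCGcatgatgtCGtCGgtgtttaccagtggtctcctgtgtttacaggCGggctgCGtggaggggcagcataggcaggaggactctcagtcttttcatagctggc
Meg3: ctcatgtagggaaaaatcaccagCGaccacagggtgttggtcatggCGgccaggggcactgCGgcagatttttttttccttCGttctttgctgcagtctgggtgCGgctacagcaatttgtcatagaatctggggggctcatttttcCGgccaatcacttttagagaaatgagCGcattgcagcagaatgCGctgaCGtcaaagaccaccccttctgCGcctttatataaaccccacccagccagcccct
Plagl1: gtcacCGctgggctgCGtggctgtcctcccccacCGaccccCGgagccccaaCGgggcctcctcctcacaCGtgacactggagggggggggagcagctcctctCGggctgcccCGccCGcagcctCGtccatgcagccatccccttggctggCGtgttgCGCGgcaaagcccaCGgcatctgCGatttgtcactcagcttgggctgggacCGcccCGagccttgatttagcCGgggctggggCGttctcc
Grb10: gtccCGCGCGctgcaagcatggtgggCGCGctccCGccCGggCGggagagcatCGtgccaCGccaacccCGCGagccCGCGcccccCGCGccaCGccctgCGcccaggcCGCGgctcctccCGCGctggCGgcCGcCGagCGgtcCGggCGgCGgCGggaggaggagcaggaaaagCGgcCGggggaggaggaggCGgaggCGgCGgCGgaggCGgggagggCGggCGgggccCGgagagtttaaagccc
The printed stretches held 8 CG dinucleotides before Dlk1, 10 before Meg3, 19 before Plagl1 and 40 before Grb10. Over windows of 300 bases (250 before and 50 after the start), the 11 start sites of these genes had a median of 13 CG dinucleotides and a range from 1 to 45, against a median of 7 over all 32851 windows in the table. The Grb10 window was at the top of that range, and 1.933% of all windows held at least as many. The TATA box, searched as TATAAA on both strands, lay in 1 of the 11 windows (that of Meg3 printed above) and in 13.616% of all windows. The GC box, searched as GGGCGG on both strands, lay in 6 of the 11 windows and in 35.658% of all windows. These matches describe the letters of the windows, while binding and methylation were not measured. The 11 windows were not independent, since genes with several start sites counted more than once. Start sites 2 and 3 of Mest lay so close that their windows were nearly the same.

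Libraries held between 8849053 and 31613434 counts. Levels are given as CPM, counts scaled to the library size after TMM normalization. Ttr took between 15.7% and 19.6% of the counts in whole tissue and between 16.4% and 23.6% in sorted cells, and the ribosomal RNA precursor row Rn45s took between 4.07% and 4.40% and between 6.49% and 13.9%. The 14 epithelial markers, Ttr included, summed to 196102 and 180714 CPM in telencephalic whole and 149994 and 152412 CPM in hindbrain whole libraries. In sorted cells they summed to 292933 and 269090 CPM in telencephalic and 172173 and 223538 CPM in hindbrain libraries. The hindbrain sum was 0.80-fold the telencephalic in whole tissue and 0.70-fold in sorted cells. Between sorted regions, 3 of the 14 were called higher in the hindbrain and 4 lower. Sorting gave 6 higher calls in the telencephalic and 5 in the hindbrain plexus, and 0 lower. Ttr gave most of each sum, so the sums say little of the other markers. Sorting lowered all 14 tested endothelial markers, with a median log2 difference from whole tissue of -4.68 in telencephalic and -3.85 in hindbrain cells. Markers of other cells were still detected after sorting, and several of their lists differed between the regions of the sorted cells. Macrophage markers (15 genes) summed to between 45.8 and 77.8 CPM in telencephalic and between 244 and 270 CPM in hindbrain sorted cells, and 14 of the 15 were called higher in the hindbrain. Mural cell markers (12 genes) summed to between 85.0 and 94.5 CPM and between 294 and 332 CPM, and 9 of the 11 tested were called higher. Endothelial markers (14 genes) summed to between 133 and 138 CPM and between 194 and 204 CPM, and 5 of the 14 were called higher and 1 lower. Mesenchymal markers (15 genes) summed to between 3720 and 3895 CPM and between 3899 and 4327 CPM, a fold of 1.08, and 12 of the 15 were called higher and 2 lower. Neuronal markers (13 genes) summed to between 19.6 and 20.3 CPM and between 32.7 and 35.6 CPM, yet 1 was called higher and 2 lower, with a median log2 difference of -0.27. Neural progenitor and glial markers (10 genes) summed to between 344 and 375 CPM and between 291 and 340 CPM, and of the 9 tested 3 were called higher and 2 lower. Markers at 0 in both telencephalic sorted libraries were Sox17 (endothelial), Gap43 and Neurod1 (neuronal) and Olig2 (glial); the 4 globin genes among the 7 erythroid markers were at 0 in every library. In whole tissue the summed levels were 2.35-fold (neuronal), 2.03-fold (erythroid), 1.34-fold (macrophage), 1.04-fold (mural), 1.03-fold (endothelial) and 1.01-fold (mesenchymal) higher in the hindbrain; 3 of 13 neuronal, 1 of 3 tested erythroid, 1 of 15 macrophage, 1 of 14 endothelial, 1 of 9 tested progenitor and glial and 7 of 15 mesenchymal markers were called higher. The part of these markers in the regional results below, in whole tissue or sorted cells, was not tested.

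Of the 10 imprinted genes, 5 were higher in the hindbrain than in the telencephalic plexus: Dlk1, Meg3, H19, Plagl1 and Peg10. In whole tissue 5 were called higher and 0 lower (Benjamini-Hochberg adjusted p below 0.05 in edgeR's quasi-likelihood test over all 15698 genes), where 5.79% of all genes were called, 3.34% as higher and 2.45% as lower. In sorted cells the same 5 genes were called higher and 0 lower, where 15.2% of all genes were called, 9.06% as higher and 6.12% as lower. At an unadjusted p below 0.05, 7 of the 10 differed in whole tissue and 6 in sorted cells. The median log2 difference of the 10 genes was 0.34 in whole tissue and 0.64 in sorted cells, beside medians of 0.01 and -0.00 over all genes. Each of these 5 genes was higher in the hindbrain in 4 of 4 pairs of libraries from the same brains. The 5 were called from these same libraries, so the pairs are no separate support. Whether a pair is 1 brain or several is not given. The p-values set each difference against an estimate of spread shared by all 4 groups. That spread is between samples which the submitters call biological replicates. Pairing of the regions by brain was not used in the reported fit.

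**Figure D1:**
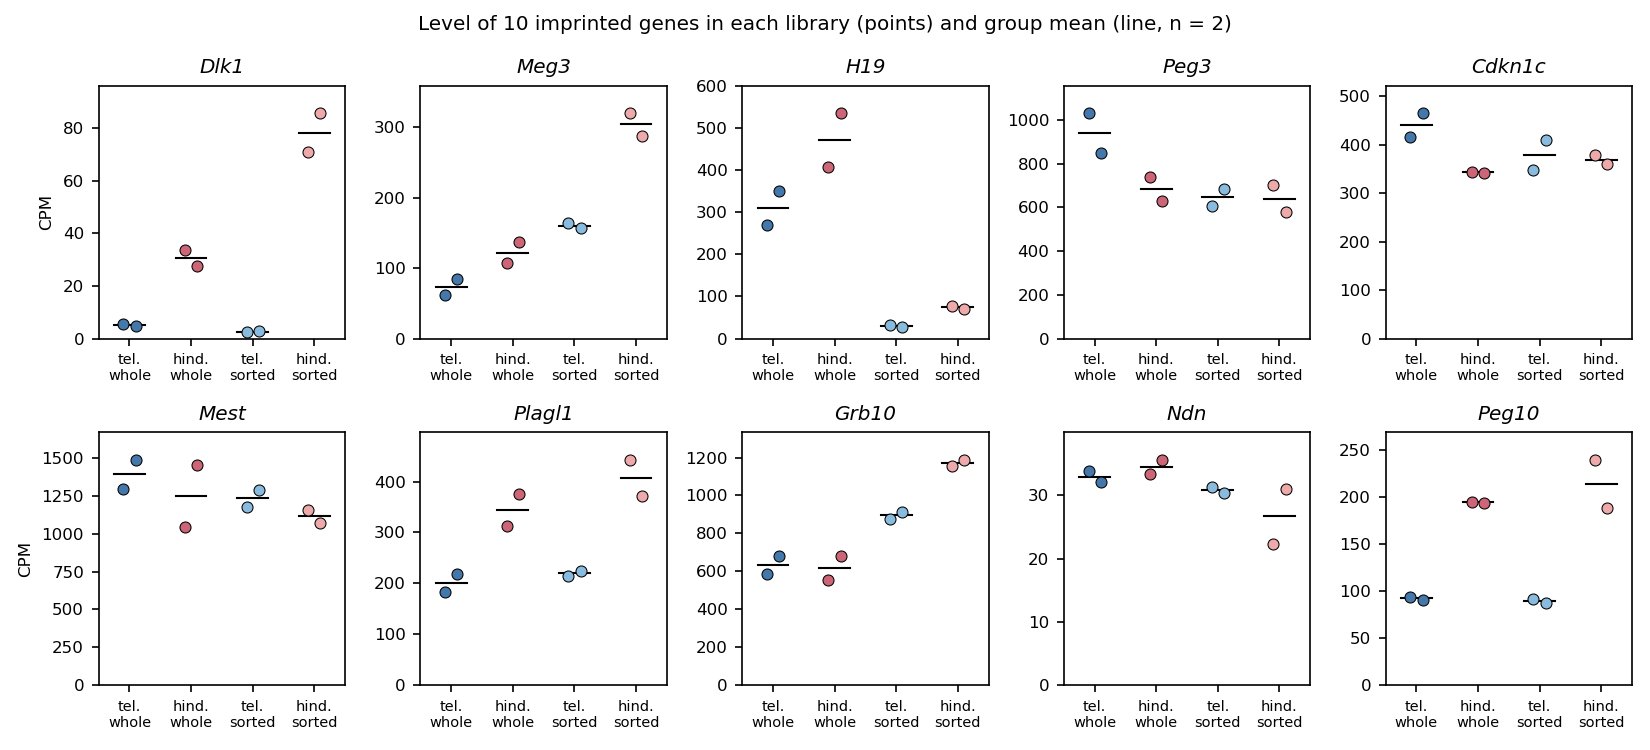
Level of each of the 10 imprinted genes in CPM (linear axes from 0) in telencephalic whole, hindbrain whole, telencephalic sorted and hindbrain sorted plexus. Points are libraries and lines are means of n = 2; Dlk1 lies between 2.34 and 5.38 CPM in the telencephalic libraries and between 27.6 and 85.8 CPM in the hindbrain libraries.

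**Figure D2:**
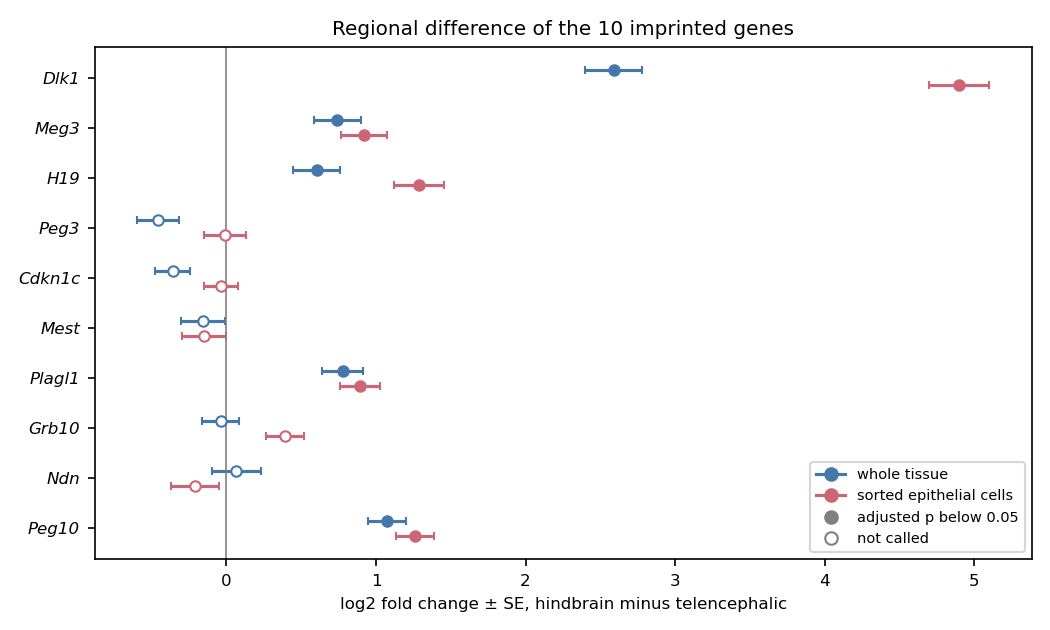
Log2 fold change, hindbrain minus telencephalic, with its SE, for the 10 genes in whole tissue (blue) and sorted cells (red); filled points had an adjusted p below 0.05. Dlk1 stands apart, at 2.59 in whole tissue and 4.90 in sorted cells.

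Dlk1, a transmembrane protein of the Delta-like family that holds back differentiation of several progenitor types, showed the largest regional difference of the 10 genes in both preparations. Its level was 5.38 and 4.72 CPM in the telencephalic whole libraries and 33.7 and 27.6 CPM in the hindbrain whole libraries. In sorted cells it was 2.34 and 2.98 CPM in the telencephalic and 70.8 and 85.8 CPM in the hindbrain libraries. Every hindbrain library was above every telencephalic library. The telencephalic sorted values rested on 62 and 48 counts, with exact Poisson 95% intervals of 47.5 to 79.5 and 35.4 to 63.6 counts that cover counting error only, and the hindbrain sorted values on 1946 and 2337 counts.

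In whole tissue Dlk1 was 6.01-fold higher in the hindbrain (log2 2.59 ± 0.19 SE, edgeR adjusted p = 7.47e-06), and in sorted cells 29.8-fold higher (log2 4.90 ± 0.20, edgeR adjusted p = 3.10e-08). Over the 4 pairs of libraries from the same brains the fold ran from 5.85 to 30.2. By p-value Dlk1 ranked 4 among the 15698 genes in sorted cells and 19 in whole tissue. The regional difference was larger in sorted cells than in whole tissue: the interaction of region and preparation was log2 2.31 ± 0.28 (edgeR adjusted p = 0.00193). Dlk1 was the 1 gene of the 10 with a called interaction, where 1.34% of all genes were called, 1.1% as higher, and 4 of the 10 had an unadjusted p below 0.05. The median interaction of the 10 genes was 0.25, beside 0.00 over all genes.

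Sorting moved Dlk1 in opposite directions in the regions. In the hindbrain it rose from 30.7 ± 4.31 CPM (SD, n = 2) in whole tissue to 78.3 ± 10.6 CPM in sorted cells, by log2 1.35 ± 0.16 (SE; edgeR adjusted p = 0.000118). In the telencephalic plexus it fell from 5.05 ± 0.470 to 2.66 ± 0.447 CPM (log2 -0.96 ± 0.23 SE, edgeR adjusted p = 0.00984). That fall was not called without telencephalic whole replicate 1 (adjusted p = 0.122) or without telencephalic sorted replicate 1 (0.110). The groups thus stood in the order telencephalic sorted, telencephalic whole, hindbrain whole and hindbrain sorted, with no overlap between neighbours. In the hindbrain, where Dlk1 rose on sorting, the median marker difference was -3.85 for endothelial, -0.51 for mural, -0.26 for mesenchymal and -0.00 for macrophage lists. In the telencephalic plexus, where Dlk1 fell, these medians were -4.68, -2.16, -1.001 and -1.83. Erythroid and neuronal medians were -2.95 and -5.06 in the hindbrain and -1.99 and -2.76 in the telencephalic plexus. The part of these cells in the change of Dlk1 was not tested. In bulk RNA, fewer cells that express a gene and less of its RNA per cell cannot be told apart, here or for any gene below.

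Meg3, a maternally expressed long noncoding RNA, lies beside Dlk1 in the Dlk1-Dio3 imprinted domain on chromosome 12. It measured 62.0 and 84.5 CPM in telencephalic whole, 107 and 137 CPM in hindbrain whole, 163 and 157 CPM in telencephalic sorted and 320 and 288 CPM in hindbrain sorted libraries. The 4 groups did not overlap, and the order differed from that of Dlk1, since both sorted groups were above both whole groups. Meg3 was 1.67-fold higher in the hindbrain in whole tissue (log2 0.74 ± 0.16 SE, edgeR adjusted p = 0.0139) and 1.90-fold higher in sorted cells (log2 0.92 ± 0.15, edgeR adjusted p = 0.00154). The call in whole tissue was lost without telencephalic whole replicate 1 (adjusted p = 0.238) or hindbrain whole replicate 2 (0.142). Sorting raised Meg3 by log2 1.14 ± 0.16 in the telencephalic (edgeR adjusted p = 0.000317) and by 1.32 ± 0.16 in the hindbrain plexus (0.000118).

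Other transcripts of the domain were also called higher in the hindbrain, mostly in sorted cells. Of its 7 listed genes, Dlk1 and Meg3 included, 6 passed the filter. In sorted cells 5 of these were called higher and 0 lower, where 9.06% of all genes were called higher. In whole tissue 3 were called higher and 0 lower, where 3.34% of all genes were called higher. Beside Dlk1 and Meg3, Rian alone was called in whole tissue. Rian, a maternally expressed noncoding RNA that hosts small nucleolar RNAs, had a mean of 42.8 ± 9.91 CPM (SD, n = 2) in telencephalic whole, 71.5 ± 4.45 in hindbrain whole, 146 ± 9.90 in telencephalic sorted and 307 ± 19.3 in hindbrain sorted libraries. Its regional difference was log2 0.75 ± 0.15 SE in whole tissue (edgeR adjusted p = 0.00937) and 1.07 ± 0.14 in sorted cells (0.000275), and sorting raised it by 1.78 ± 0.15 and 2.10 ± 0.15 (adjusted p = 5.60e-06 and 1.36e-06). The call for Rian in whole tissue was lost without telencephalic whole replicate 1 (adjusted p = 0.169) or hindbrain whole replicate 2 (0.0655). Thus Rian, like Meg3, was highest in hindbrain sorted cells and lowest in telencephalic whole tissue.

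Rtl1, a paternally expressed gene derived from a retrotransposon, was at 1.85 ± 0.633 CPM (SD, n = 2) in telencephalic and 5.72 ± 0.0422 CPM in hindbrain sorted cells (log2 1.65 ± 0.34 SE, edgeR adjusted p = 0.00535; 0.0662 without telencephalic sorted replicate 1). Mirg, a noncoding RNA that hosts microRNAs, was at 2.47 ± 0.417 and 6.09 ± 1.67 CPM (log2 1.29 ± 0.33, edgeR adjusted p = 0.0188). The call for Mirg was lost without telencephalic sorted replicate 1 (0.0651) or 2 (0.105) or hindbrain sorted replicate 2 (0.0650). Begain, at the edge of the domain, was at or under 0.700 CPM on average in all groups and was not called in either preparation (log2 0.51 ± 0.86 in whole tissue and 1.53 ± 0.97 in sorted cells). Dio3, which encodes a deiodinase that inactivates thyroid hormone, had 0 counts in every library but 1 hindbrain sorted library with 6, and was not tested.

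**Figure D3:**
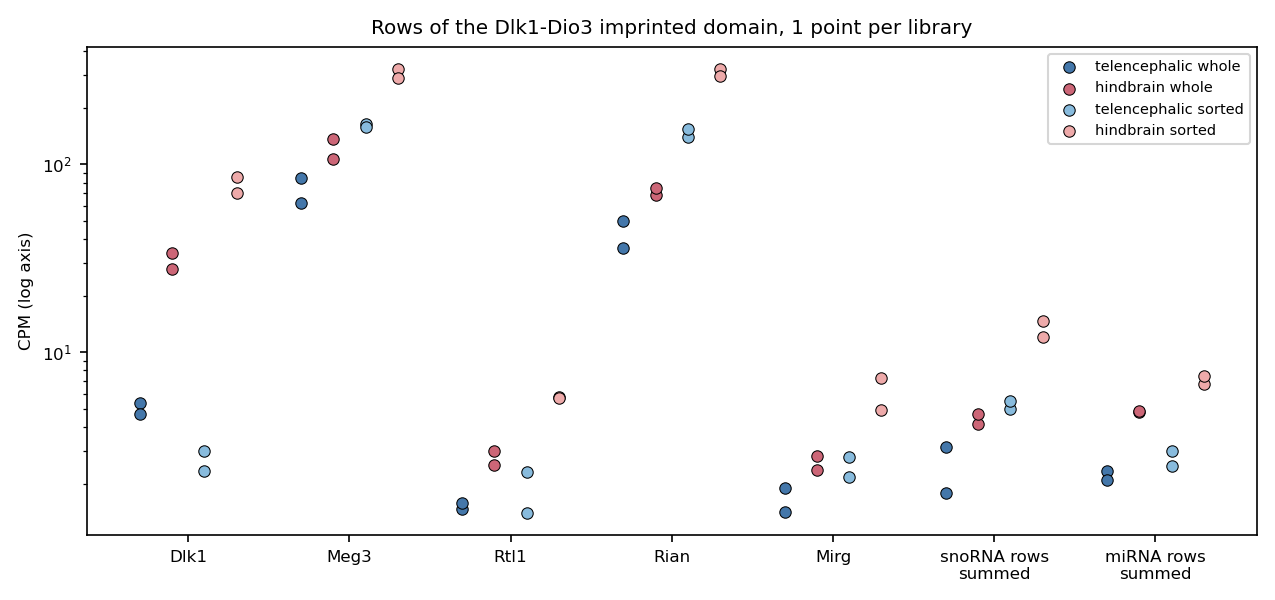
CPM on a log axis of Dlk1, Meg3, Rtl1, Rian, Mirg and the summed small nucleolar RNA and microRNA entries of the Dlk1-Dio3 domain, 1 point per library, coloured by group. Hindbrain sorted libraries are the highest for each; Meg3 and Rian are higher in both sorted groups than in whole tissue, whereas Dlk1 is lowest in telencephalic sorted cells.

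The count table also held entries for small RNAs of the domain, which were picked by their place in RefSeq after the table had been seen. Of 56 microRNA entries, 41 had counts and 3 passed the filter. Summed over all 56, they reached 2.32 and 2.10 CPM in telencephalic whole, 4.84 and 4.86 in hindbrain whole, 2.50 and 2.98 in telencephalic sorted and 6.77 and 7.45 in hindbrain sorted libraries. Both hindbrain groups were above both telencephalic groups. Since the libraries were made from amplified cDNA of longer RNA, such counts cover hairpins and host transcripts and say nothing of the mature form. The entry Mir134 had 19 and 16 counts in the hindbrain sorted and 0 in both telencephalic sorted libraries; against a floor of 3 counts over the telencephalic group its level was at least 9.07-fold higher (edgeR adjusted p = 0.0165; 0.148 and 0.0795 without telencephalic sorted replicate 1 or 2). The mature arms of this microRNA are printed because Mir134 was the only called microRNA entry of the domain, with the seed (bases 2 to 8) in capitals, from RefSeq on GRCm38.p6.
mmu-miR-134-5p: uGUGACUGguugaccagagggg
mmu-miR-134-3p: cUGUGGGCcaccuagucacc
The 4 small nucleolar RNA entries summed to 1.77 and 3.14 CPM in telencephalic whole, 4.15 and 4.67 in hindbrain whole, 4.99 and 5.52 in telencephalic sorted and 14.7 and 12.1 in hindbrain sorted libraries. Of the 3 that passed the filter, AF357359 (log2 1.33 ± 0.28 SE, edgeR adjusted p = 0.00685) and AF357425 (1.79 ± 0.44, 0.0169) were called higher in hindbrain sorted cells. Neither call held without telencephalic sorted replicate 1 (adjusted p = 0.0523 and 0.134), and that of AF357425 was also lost without telencephalic sorted replicate 2 (0.0647).

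Peg10 encodes a protein of retrotransposon origin that is needed for the placenta. Its level was 93.3 and 90.8 CPM in telencephalic whole, 195 and 194 CPM in hindbrain whole, 91.4 and 86.9 CPM in telencephalic sorted and 239 and 188 CPM in hindbrain sorted libraries. The regions did not overlap, while within a region the whole and sorted values did. Peg10 was 2.11-fold higher in the hindbrain in whole tissue (log2 1.08 ± 0.13 SE, edgeR adjusted p = 0.000247) and 2.40-fold higher in sorted cells (log2 1.26 ± 0.13, edgeR adjusted p = 3.06e-05), and both calls held in all 8 fits that left out a single library. Sorting gave no called difference (log2 -0.05 ± 0.13 telencephalic and 0.14 ± 0.12 hindbrain). Sgce, which encodes a sarcoglycan and starts beside Peg10 on the opposite strand, gave log2 0.02 ± 0.16 in whole tissue and was called higher in hindbrain sorted cells (log2 0.74 ± 0.16, edgeR adjusted p = 0.00835; 0.112 without telencephalic sorted replicate 1). Pon2, a paraoxonase gene of the same cluster, differed the other way in sorted cells (log2 -0.73 ± 0.11, edgeR adjusted p = 0.000927). Over the 7 tested genes of that cluster, Peg10 included, 1 was called higher and 1 lower in whole tissue (5.79% of all genes called). Sorted cells (15.2%) gave 2 higher and 1 lower.

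Plagl1, also called Zac1, encodes a zinc finger transcription factor of growth control. It measured 183 and 219 CPM in telencephalic whole, 314 and 375 in hindbrain whole, 215 and 224 in telencephalic sorted and 443 and 371 in hindbrain sorted libraries. As for Peg10, the regions were separate and the preparations of a region overlapped. The regional difference was log2 0.78 ± 0.14 SE in whole tissue (edgeR adjusted p = 0.00393) and 0.89 ± 0.14 in sorted cells (0.000746); the former was not called without telencephalic whole replicate 1 (adjusted p = 0.0986). Sorting gave no called difference (log2 0.13 ± 0.14 telencephalic, 0.24 ± 0.13 hindbrain). Its neighbour Phactr2, a regulator of protein phosphatase and actin, was higher in hindbrain sorted cells too (log2 0.68 ± 0.13, edgeR adjusted p = 0.00306), whereas Sf3b5 (-0.55 ± 0.17) and Ltv1 (0.35 ± 0.14) were not called.

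H19, a maternally expressed long noncoding RNA next to Igf2, was the member with the largest loss on sorting. It measured 270 and 351 CPM in telencephalic whole, 407 and 536 CPM in hindbrain whole, 32.6 and 27.7 CPM in telencephalic sorted and 76.4 and 71.2 CPM in hindbrain sorted libraries. All sorted libraries were below all whole libraries, and within each preparation the hindbrain was the higher region without overlap. Sorting lowered H19 by log2 -3.36 ± 0.17 SE in the telencephalic (10.3-fold lower, edgeR adjusted p = 7.83e-08) and -2.68 ± 0.17 in the hindbrain plexus (6.39-fold lower, edgeR adjusted p = 4.31e-07). In the same comparisons the median of the endothelial markers was -4.68 and -3.85, of the mural markers -2.16 and -0.51, of the mesenchymal markers -1.001 and -0.26, and of the macrophage markers -1.83 and -0.00. The erythroid median was -1.99 and -2.95, the neuronal -2.76 and -5.06, the progenitor and glial -0.34 and -1.57, and the epithelial 0.33 and 0.20. The part of these cells in the change of H19 was not tested.

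The regional difference of H19 was log2 1.29 ± 0.16 SE in sorted cells (2.44-fold, edgeR adjusted p = 0.000197). Over the 8 fits without a single library it ran from log2 1.18 to 1.42. In hindbrain sorted cells the summed markers were 4.16-fold (macrophage), 3.49-fold (mural), 1.71-fold (neuronal) and 1.47-fold (endothelial) the telencephalic level. The others were at 1.21-fold (erythroid), 1.08-fold (mesenchymal), 0.88-fold (progenitor and glial) and 0.70-fold (epithelial). The part of these markers in the difference of H19 was not tested. In whole tissue the regional difference of H19 was log2 0.60 ± 0.16 (1.52-fold, edgeR adjusted p = 0.0411). That call was lost without telencephalic whole replicate 1 or 2, hindbrain whole replicate 2, or telencephalic sorted replicate 1 or 2. Over the 8 fits without a single library the difference ran from log2 0.39 to 0.80. Sorted libraries are not part of this comparison, and enter through the estimate of spread, the filter, the scaling and the adjustment that all libraries share. The interaction of region and preparation was not called (log2 0.68 ± 0.23, adjusted p = 0.275), but was called when the same-brain pair entered as a replicate block (log2 0.69, adjusted p = 0.0402). Igf2, the paternally expressed growth factor gene that shares enhancers with H19, kept a high level after sorting. Its means were 3658 ± 511 CPM (SD, n = 2) in telencephalic whole, 6071 ± 1289 in hindbrain whole, 4026 ± 303 in telencephalic sorted and 4900 ± 634 in hindbrain sorted libraries. Neither sorting difference of Igf2 was called (log2 0.14 ± 0.15 SE telencephalic, -0.31 ± 0.15 hindbrain); whether it differs from that of H19 was not tested. The regional call for Igf2 in whole tissue (log2 0.73 ± 0.16, edgeR adjusted p = 0.0137) was lost without telencephalic whole replicate 2 (0.188) or hindbrain whole replicate 1 (0.128).

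Across the 10 genes, sorting was followed by 2 higher and 3 lower calls in the telencephalic plexus, where 22.4% of all genes were called, 9.88% as higher and 12.5% as lower. In the hindbrain there were 3 higher calls and 1 lower call, where 22.1% of all genes were called, 10.2% as higher and 11.9% as lower. The median log2 difference of the 10 genes was -0.13 and 0.12, beside 0.01 and 0.01 over all genes. The genes called were Dlk1, Meg3, H19, Peg3 and Grb10 in the telencephalic and Dlk1, Meg3, H19 and Grb10 in the hindbrain plexus. Of the 5 telencephalic calls, 2 were left without telencephalic whole replicate 1 and 2 without telencephalic sorted replicate 1.

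**Figure D4:**
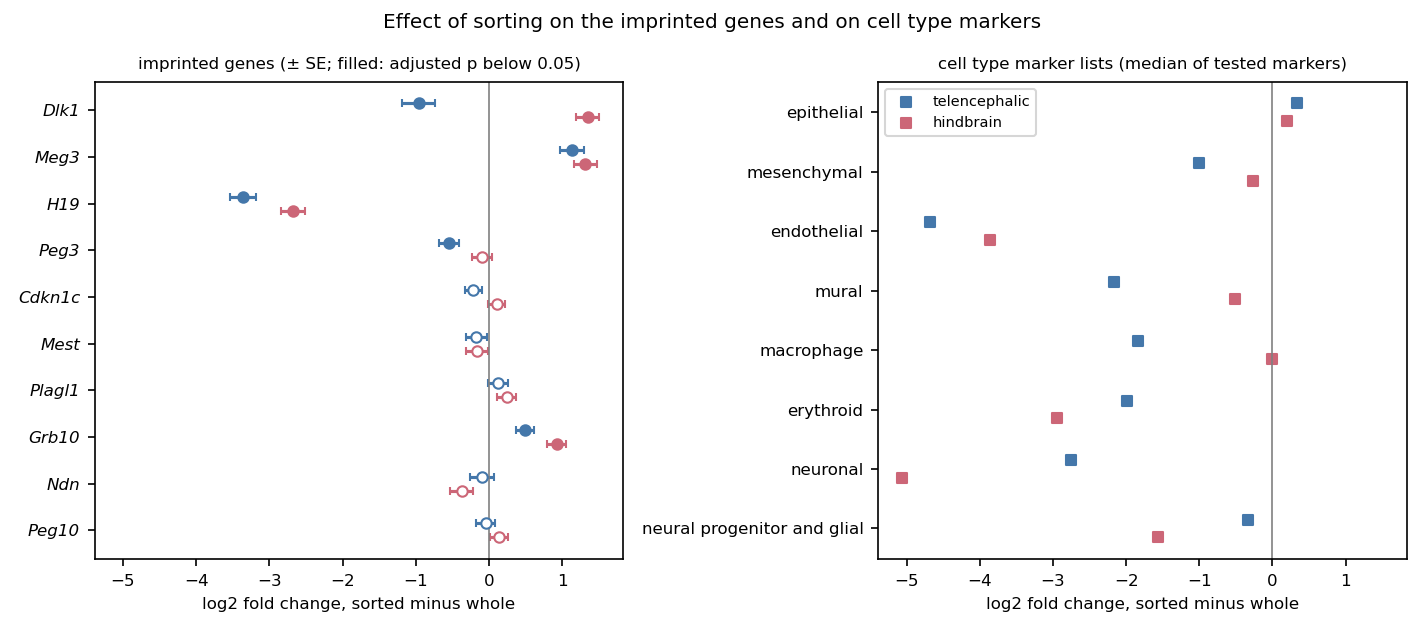
Left, log2 fold change of the 10 genes, sorted minus whole, with its SE, in the telencephalic (blue) and hindbrain (red) plexus; filled points had an adjusted p below 0.05. Right, median log2 fold change of the tested markers of each cell type on the same scale. On the left, H19 is at -3.36 and -2.68, and Meg3 and Grb10 lie above 0.

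Grb10, an adaptor that binds the insulin and IGF receptors and restrains growth, rose on sorting. It measured 586 and 683 CPM in telencephalic whole, 553 and 682 CPM in hindbrain whole, 879 and 911 CPM in telencephalic sorted and 1158 and 1190 CPM in hindbrain sorted libraries. Whole tissue of the 2 regions overlapped, all sorted libraries were above it, and the hindbrain sorted libraries were highest. The sorting difference was log2 0.50 ± 0.12 SE in the telencephalic (edgeR adjusted p = 0.0137) and 0.93 ± 0.13 in the hindbrain plexus (0.000298). The telencephalic call was lost without telencephalic whole replicate 1 (adjusted p = 0.152) or telencephalic sorted replicate 1 (0.0580) or 2 (0.0711), and with library totals as the scale (log2 0.18, adjusted p = 0.387). Grb10 was not called between regions in whole tissue (log2 -0.04 ± 0.12). In sorted cells its difference of log2 0.39 ± 0.12 was just outside the threshold (edgeR adjusted p = 0.0521) and inside it with the same-brain pair as a replicate block (0.0279), with DESeq2 (0.0144) and without hindbrain whole replicate 1 (0.0393) or 2 (0.0404). Cobl, an actin nucleator gene next to Grb10, gave log2 0.37 ± 0.13 between sorted regions, not called (adjusted p = 0.0772), and Ddc, the aromatic amino acid decarboxylase gene, gave 0.01 ± 0.46.

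Among 22 genes of insulin and IGF receptor signalling, whole tissue gave 1 call toward the hindbrain and 2 toward the telencephalic plexus. Sorted cells gave 1 and 1, beside 5.79% of all genes called in whole tissue and 15.2% in sorted cells. Grb14, an adaptor of the same family as Grb10, was the higher gene in both, with means of 15.7 CPM in telencephalic and 38.9 CPM in hindbrain whole tissue (log2 1.31 ± 0.18 SE, edgeR adjusted p = 0.000662) and of 18.4 and 54.6 CPM in sorted cells (1.57 ± 0.17, 5.48e-05). On sorting, 3 of the 22 genes were called higher and 0 lower in each region, beside 9.88% of all genes called higher in the telencephalic and 10.2% in the hindbrain plexus. Irs2, an insulin receptor substrate, rose by log2 1.27 ± 0.14 in the telencephalic (edgeR adjusted p = 3.93e-05) and 1.31 ± 0.14 in the hindbrain plexus (3.83e-05).

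Peg3, Cdkn1c, Mest and Ndn showed no called regional difference. Peg3, a zinc finger protein gene of growth and maternal behaviour, measured 1032 and 851 CPM in telencephalic whole, 742 and 631 in hindbrain whole, 607 and 685 in telencephalic sorted and 702 and 580 in hindbrain sorted libraries. The telencephalic whole libraries were the highest, and the other groups overlapped. In whole tissue the hindbrain value was lower by log2 -0.46 ± 0.14 SE, which was not called (edgeR adjusted p = 0.0860) but was with the same-brain pair as a replicate block (log2 -0.45, adjusted p = 0.0498), with DESeq2 (0.0228) and without hindbrain sorted replicate 1 (0.0378) or 2 (0.0365). In the telencephalic plexus Peg3 fell on sorting by log2 -0.54 ± 0.14 (edgeR adjusted p = 0.0151), a call lost without telencephalic whole replicate 1 (0.173) or telencephalic sorted replicate 1 (0.129). Beside it Zim1, a maternally expressed zinc finger gene of the Peg3 domain, was higher in hindbrain than in telencephalic sorted cells (8.20 ± 2.04 against 2.87 ± 0.545 CPM, SD, n = 2; log2 1.501 ± 0.29 SE, edgeR adjusted p = 0.00417) and Usp29 was not called (log2 -0.40 ± 0.26).

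Cdkn1c encodes p57, a cyclin-dependent kinase inhibitor. It measured 415 and 465 CPM in telencephalic whole, 344 and 342 in hindbrain whole, 347 and 410 in telencephalic sorted and 378 and 360 in hindbrain sorted libraries. The telencephalic whole libraries were the highest, and the regional difference in whole tissue was log2 -0.36 ± 0.12 SE (edgeR adjusted p = 0.110); in sorted cells it was -0.04 ± 0.12. The former was called in a fit of the whole-tissue libraries alone (log2 -0.36, adjusted p = 0.0477), and a lower level on telencephalic sorting was called with library totals as the scale (log2 -0.53, adjusted p = 0.0137). Of the 11 genes tested in its Kcnq1 domain, Cdkn1c included, 0 were called between regions in whole tissue by edgeR and 0 by DESeq2, and 1 (Cdkn1c) had an unadjusted p below 0.05. Between sorted regions 1 of the 11 was called, lower in the hindbrain: Ascl2, a transcription factor gene (log2 -1.50 ± 0.39 SE, edgeR adjusted p = 0.0222), but its adjusted p was 0.0810 or 0.0927 when the first or the second telencephalic sorted library was left out, 0.0661 without hindbrain sorted replicate 1 and 0.0682 in a fit of the sorted libraries alone. Of 18 tested genes of cyclin-dependent kinase control, 1 was called toward the hindbrain and 0 toward the telencephalic plexus in whole tissue. In sorted cells, where 15.2% of all genes were called against 5.79% in whole tissue, the counts were 5 and 1. On sorting, 2 were called higher and 4 lower in the telencephalic, and 1 higher and 4 lower in the hindbrain plexus, where 22.4% and 22.1% of all genes were called. Ccnd1, the cyclin D1 gene, fell from 131 to 44.4 CPM in the telencephalic (log2 -1.57 ± 0.12 SE, edgeR adjusted p = 2.55e-06) and from 169 to 59.6 CPM in the hindbrain plexus (-1.51 ± 0.12, 4.10e-06).

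Mest, whose product resembles a hydrolase, measured 1296 and 1492 CPM in telencephalic whole, 1046 and 1454 in hindbrain whole, 1181 and 1293 in telencephalic sorted and 1161 and 1072 in hindbrain sorted libraries. The ranges of the whole groups overlapped, and no comparison of Mest was called (log2 -0.16 ± 0.15 SE between whole regions, -0.15 ± 0.15 between sorted regions), except that its lower level on telencephalic sorting was called with library totals as the scale (log2 -0.49, adjusted p = 0.0405). Copg2 lies on the opposite strand with an overlap at Mest, and since no strand setting of the counting is given, reads of the 2 genes in the overlap cannot be told apart. Ndn encodes necdin, a growth suppressor of neurons in the Prader-Willi domain. It measured 33.8 and 32.1 CPM in telencephalic whole, 33.4 and 35.6 in hindbrain whole, 31.2 and 30.4 in telencephalic sorted and 22.3 and 31.0 in hindbrain sorted libraries. Apart from the first hindbrain sorted library, all values lay between 30.4 and 35.6 CPM, and no comparison of Ndn was called. The largest of its differences was between hindbrain sorted cells and whole tissue (log2 -0.37 ± 0.16, edgeR adjusted p = 0.113), and it was called without hindbrain sorted replicate 2 (log2 -0.63, adjusted p = 0.0117) and with library totals as the scale (log2 -0.58, adjusted p = 0.0137). Without that replicate the difference between sorted regions was called too (log2 -0.47, adjusted p = 0.0457).

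Per length, Mest was the highest and Dlk1 the lowest of the 10 genes in telencephalic libraries. Divided by the union of exons in GENCODE, Mest reached 502 CPM per kilobase in telencephalic whole and 402 in hindbrain sorted groups, and Dlk1 1.06 and 16.4. In hindbrain sorted cells Dlk1 was above Ndn (7.22 CPM per kilobase) and below Meg3 (19.4). H19 went from 136 CPM per kilobase in telencephalic whole to 13.2 in telencephalic sorted groups, from above Grb10 (124) in whole tissue to below it (174) after sorting. Meg3, counted over 15.7 kilobases of exons, was at 4.67 CPM per kilobase in telencephalic whole groups, between Dlk1 and Ndn (8.91).

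Other imprinted genes were counted in lists by the parental allele they are expressed from. Domain neighbours are in these lists too, so some regional calls below were already given above. They are Igf2 and Rian in whole tissue, and Rtl1, Sgce, Rian, Mirg, Zim1 and Ascl2 in sorted cells. For the 16 tested paternally expressed genes, whole tissue gave 2 calls toward the hindbrain and 0 toward the telencephalic plexus, and sorted cells gave 3 and 0. Of 16 tested maternally expressed genes, the counts were 1 higher and 0 lower in whole tissue and 4 higher and 1 lower in sorted cells. Their medians were 0.06 and -0.04 in whole tissue and 0.24 and 0.11 in sorted cells. Of all genes, 3.34% were called higher and 2.45% lower in whole tissue, and 9.06% and 6.12% in sorted cells. On sorting, the paternally expressed counts were 0 higher and 5 lower in the telencephalic, and 1 higher and 3 lower in the hindbrain plexus; the maternally expressed counts were 3 higher and 2 lower, and 4 higher and 2 lower. Over all genes, the shares called higher and lower were 9.88% and 12.5% in telencephalic, and 10.2% and 11.9% in hindbrain plexus. Nnat, which encodes the membrane protein neuronatin, fell from 113 ± 81.3 CPM (SD, n = 2; 170 and 55.2 CPM) in hindbrain whole tissue to 19.1 ± 6.19 CPM in hindbrain sorted cells (log2 -2.56 ± 0.39 SE, edgeR adjusted p = 0.000706; log2 -1.54 without hindbrain whole replicate 1 and -3.16 without replicate 2), where neuronal markers had a median of -5.06; their part in it was not tested. Slc22a3, a transporter gene, had 30 counts over the hindbrain whole group and 0 in hindbrain sorted cells, at least 11.9-fold lower against a floor of 3 counts over the group (edgeR adjusted p = 0.0120; 0.0603 without hindbrain whole replicate 2).

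Notch receptors and their targets were listed because Dlk1 is related to Notch ligands. Of 12 tested, whole tissue (5.79% of all genes called) gave 1 call toward the hindbrain and 1 toward the telencephalic plexus. Sorted cells (15.2%) gave 3 and 1. On sorting, 0 of the 12 were called higher and 5 lower in the telencephalic plexus, where 22.4% of all genes were called. In the hindbrain (22.1%) the counts were 2 higher and 3 lower. Heyl, a Notch target gene and also a gene of mural cells, was at 11.4 CPM in telencephalic whole, 24.4 in hindbrain whole, 0.568 in telencephalic sorted and 6.30 in hindbrain sorted groups. Its difference between sorted regions was log2 3.51 ± 0.29 SE (edgeR adjusted p = 8.23e-06), and sorting lowered it by log2 -4.37 ± 0.29 and -1.95 ± 0.20 (adjusted p = 5.53e-07 and 4.18e-05). Mural markers moved the same way, and their part in the difference of Heyl was not tested. The receptor genes Notch3 and Notch4 fell on hindbrain sorting (log2 -0.95 ± 0.16 and -1.21 ± 0.23, edgeR adjusted p = 0.00148 and 0.00282). Notch2, a receptor gene, rose on sorting in the hindbrain (log2 0.44 ± 0.10, edgeR adjusted p = 0.00956; 0.0718 without hindbrain whole replicate 1).

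Genes with the most similar profile to each member were found by Pearson's r of log2 CPM over the 8 libraries, among 9034 genes with a mean of at least 10 CPM; these values describe libraries that share group and depth, and have no p. The nearest to Dlk1 were Prkd1, Ube2q2 and Slc16a10 (r = 0.98 for each), with 29.0, 52.3 and 457 CPM in hindbrain sorted and 8.24, 19.8 and 153 CPM in telencephalic sorted groups. Peg10 was nearest to Smad9, Fmn1 and, again, Ube2q2 (r = 0.99 for each). Plagl1 was nearest to Flrt2, Rbbp8 and Purb (r = 0.99 for each). Rian was among the 3 nearest genes to Meg3 (r = 0.98), with Sarnp and Zdhhc17. The nearest to H19 were Itga4 (r = 0.996), Ppap2b (0.996) and Cav1 (0.994), of which Cav1, the caveolin 1 gene, went from 73.3 and 106 CPM in whole tissue to 1.31 and 7.08 CPM in sorted cells. Grb10 was nearest to Smc5, Nktr and Naf1 (r from 0.98 to 0.99), Peg3 to Slc12a2, Iqcg and Adam17 (0.96 to 0.97), Cdkn1c to Bag4, Macf1 and Pls3 (0.93 to 0.94), Mest to Arhgap21, Pomt2 and Acvr1b (0.94 to 0.97) and Ndn to Zfp691, Vps18 and Psme2 (0.97 to 0.99). Between members, r was 0.96 for Dlk1 with Peg10, 0.91 for Dlk1 with Plagl1 and 0.96 for Peg10 with Plagl1, but 0.57 for Dlk1 with its neighbour Meg3, which lay closer to Grb10 (0.91).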

How the data were processed

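Deposited values were raw read counts per gene for 8 libraries, in 1 table; the authors used CASAVA 1.8.2, TopHat2 2.0.4, Bowtie2 2.0.5, HTSeq and DESeq 1 on mm9, per the submitters' processing notes. Per the labels' protocols, RNA was converted to cDNA and pre-amplified (Ovation V2) before TruSeq v2 paired-end libraries; molecular identifiers, annotation and strand setting were not given in the sources used here. Amplified reads are not independent molecules, so count intervals cover counting error only.

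Counts were fitted with edgeR 4.0.16 (R 4.3.3, limma 3.58.1; quasi-likelihood test, TMM, 4 group means, filterByExpr with minimum count 10 and minimum total 15, Benjamini-Hochberg threshold 0.05). SE is the log2 fold change divided by the square root of F. Comparisons were the regions in each preparation, the preparations in each region, and their interaction. The fit was tested on simulated counts. The members and lists were chosen with earlier results of these data known. Named genes were all 10 members with each library, neighbours in their domains, genes among the up to 4 smallest adjusted p per list and comparison, and the 3 most alike per member. Pairing of the regions comes from the design text; deviations of same-brain pairs of libraries correlated at r = 0.44 in whole tissue and 0.03 in sorted cells. Replicates differed by more than counting noise, most in the hindbrain sorted group. The chi-square per degree of freedom was 5.16 in telencephalic whole, 12.3 in hindbrain whole, 15.8 in telencephalic sorted and 61.1 in hindbrain sorted groups. Rn45s took 6.49% and 11.3% of the counts in the hindbrain sorted libraries. Alternatives were other scalings, no filter, a same-brain replicate block, DESeq2 1.42.0, subsets of libraries and each library left out. Promoter and microRNA sequences came from RefSeq tables on GRCm38.p6, exon lengths from GENCODE on GRCm38, and no coordinates were converted from mm9.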

Additional observations from a re-analysis of the deposited data

Results flagged for a closer look

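The interaction of region and preparation passed the threshold of edgeR's quasi-likelihood test for 3 of the genes named. In each, the log2 regional difference (hindbrain minus telencephalic) was higher in sorted cells than in whole tissue, by the amount of the interaction. For Dlk1 it was log2 2.31 ± 0.28 SE (adjusted p = 0.00193), and it was called in all 8 fits that left out a single library. For Heyl it was log2 2.42 ± 0.36 (adjusted p = 0.00542), and it was not called without telencephalic sorted replicate 1 (0.0657). For Zim1 it was log2 2.01 ± 0.42 (adjusted p = 0.0383), and it was called in 1 of the 8 such fits, with adjusted p up to 0.250. In whole tissue Zim1 was lower in the hindbrain (2.92 against 4.10 CPM on average, not called), so its direction differed between the preparations. Macrophage and mural markers were also higher in hindbrain than in telencephalic sorted cells. Their summed CPM was 4.16-fold and 3.49-fold higher there, against 1.34-fold and 1.04-fold in whole tissue. Endothelial and mesenchymal sums were at 1.47-fold and 1.08-fold in sorted cells, against 1.03-fold and 1.01-fold in whole tissue. Neuronal and erythroid sums were at 1.71-fold and 1.21-fold, against 2.35-fold and 2.03-fold. Progenitor and glial sums were at 0.88-fold, against 1.07-fold, and epithelial sums at 0.70-fold, against 0.80-fold. The part of any of these markers in the interactions was not tested.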

How the results depend on the processing

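Of 720 values of the 10 genes under the alternatives, 659 kept their direction and their side of the threshold, 16 lost the call, 19 gained it and 26 changed sign; every change of sign was in a value not called in the reported fit. Library totals as the scale moved the median of all genes by between -0.30 and 0.20 (log2), and there the sign changed for Grb10 in whole tissue (0.039), for Peg3 (0.20), Cdkn1c (0.17) and Mest (0.056) between sorted regions, for Plagl1 on telencephalic sorting (-0.19), and for Cdkn1c (-0.090) and Peg10 (-0.051) on hindbrain sorting. It also moved the share of higher genes among those called from 57.6% to 70.7% between whole regions, 59.7% to 83.5% between sorted regions, 44.1% to 10.5% on telencephalic sorting and 46.3% to 20.1% on hindbrain sorting. With the libraries of the comparison only, 1587 genes were called between whole regions (reported fit 909), 1460 between sorted regions (2383) and 2236 on hindbrain sorting (3472). For the interaction (211), 441 genes were called with no filter and 327 with DESeq2.

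The same-brain pair as a replicate block gave 337 genes and 2 of the 10 members for the interaction, H19 joining Dlk1; it also called Peg3 in whole tissue and Grb10 between sorted regions and changed no other call of the 10 genes. It called 1195 genes between whole and 2943 between sorted regions.

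Leaving out each library in turn gave 316 to 1341 genes and 2 to 6 members between whole regions (2 when telencephalic whole replicate 1 was left out and 3 for hindbrain whole replicate 2), 1051 to 3253 genes and 5 to 6 members between sorted regions, 1519 to 4501 genes and 2 to 5 members on telencephalic sorting, 1691 to 3873 genes and 4 to 5 members on hindbrain sorting, and 58 to 473 genes and 1 member for the interaction; a group left with 1 library was assumed to vary like the others. Values that changed sign there ranged, between whole regions, from -0.41 to 0.060 for Mest and -0.20 to 0.10 for Grb10; between sorted regions, from -0.16 to 0.12 for Peg3, -0.15 to 0.086 for Cdkn1c and -0.47 to 0.0050 for Ndn; on hindbrain sorting, from -0.24 to 0.033 for Peg3, -0.38 to 0.092 for Mest and -0.047 to 0.30 for Peg10; and for the interaction, from -0.053 to 0.39 for Meg3, -0.21 to 0.26 for Mest and -0.020 to 0.25 for Plagl1. The cause was not tested. Precision is limited by 2 libraries a group and, for Dlk1 in telencephalic sorted cells, by 62 and 48 counts.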
